A study of Homo sapiens with 4 samples.

Results

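The loci of 3 receptor tyrosine kinase genes, EGFR, MET and AXL, were examined for sites listed as bound by Fra-1 or DDX5 in BT549, an established line of human breast cancer cells without oestrogen receptor alpha. The loci were fixed windows in hg19, at chr7:55070000-55300000 for EGFR (230 kb), chr7:116290000-116450000 for MET (160 kb) and chr19:41710000-41780000 for AXL (70 kb), and a peak was a member if at least 1 bp of it lay inside. This gave 57 of the 57601 peaks in the 4 deposited lists. Of these, 28 were Fra-1 peaks called over input DNA, 17 were Fra-1 peaks called over IgG and 12 were DDX5 peaks called over input. The DDX5 list over IgG, which holds 61 peaks in all, had 0 in the 3 windows.

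The study made 4 libraries from untreated cells: 1 chromatin immunoprecipitation (ChIP) with an antibody to Fra-1, 1 with an antibody to DDX5, 1 with rabbit IgG that has no set target, and 1 of input DNA, which is chromatin without immunoprecipitation. The series compares sites specific to Fra-1 or to DDX5 with sites common to both. As each antibody has 1 library and thus no replicate, antibodies and loci could not be compared by a test, and the 95% exact binomial (Clopper-Pearson) intervals of shares cover counting error only. The intervals treat peaks as independent draws, which neighbouring peaks in a chosen window need not be. The depth of each library is not given in the sources used here.

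EGFR belongs to the ErbB family and binds epidermal growth factor and related ligands. MET is the receptor for hepatocyte growth factor, and AXL, of the TAM family, binds GAS6. On ligand binding these receptors phosphorylate themselves on tyrosine and signal through the RAS and ERK cascade and through PI3K, and each is known in breast cancer cells for roles in proliferation, migration or drug resistance. Fra-1, the product of FOSL1, is a Fos-family protein that dimerises with Jun proteins to form AP-1, whose consensus site is written TGANTCA. ERK signalling stabilises Fra-1. DDX5 unwinds RNA as a member of the DEAD-box helicases and is also known as a coactivator that transcription factors recruit.

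The promoters of the 3 genes are shown first because the series concerns an AP-1 protein. Among them, only the promoter of the downstream EGFR start carried its consensus letters. The sequences are the 250 bases before an annotated start, from RefSeq on GRCh38.p14 (all on the plus strand, written 5′ to 3′), with TGANTCA matches in capitals. The peaks are in hg19, so the overlap of a peak with these promoters, with exons or with introns was not analysed here.
EGFR, first start, chr7:55018767-55019016: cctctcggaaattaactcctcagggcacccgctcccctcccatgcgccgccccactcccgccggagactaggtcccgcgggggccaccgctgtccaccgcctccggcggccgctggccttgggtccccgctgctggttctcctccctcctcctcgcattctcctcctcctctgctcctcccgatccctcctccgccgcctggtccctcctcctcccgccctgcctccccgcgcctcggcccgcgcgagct
EGFR, downstream start, chr7:55109589-55109838: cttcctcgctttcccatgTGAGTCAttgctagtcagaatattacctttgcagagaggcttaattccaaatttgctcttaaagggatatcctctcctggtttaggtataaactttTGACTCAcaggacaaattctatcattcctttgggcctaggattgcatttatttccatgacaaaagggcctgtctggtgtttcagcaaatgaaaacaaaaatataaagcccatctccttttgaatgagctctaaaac
MET, chr7:116671946-116672195: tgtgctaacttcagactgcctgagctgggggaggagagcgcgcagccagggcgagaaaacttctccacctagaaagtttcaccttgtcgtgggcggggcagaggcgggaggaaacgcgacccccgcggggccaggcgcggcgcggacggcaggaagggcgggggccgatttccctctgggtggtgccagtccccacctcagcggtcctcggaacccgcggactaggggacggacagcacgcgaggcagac
AXL, first start, chr19:41218973-41219222: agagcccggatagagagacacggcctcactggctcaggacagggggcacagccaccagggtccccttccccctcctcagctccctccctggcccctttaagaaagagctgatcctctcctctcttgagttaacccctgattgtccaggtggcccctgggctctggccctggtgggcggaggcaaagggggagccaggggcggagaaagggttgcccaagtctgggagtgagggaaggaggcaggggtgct

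The downstream EGFR start had 2 matches, TGAGTCA ending 226 bases and TGACTCA ending 130 bases before the start. The first EGFR start, the MET start and both AXL starts had 0 in these 250 bases (the second AXL start is not shown). TGANTCA reads the same on both strands, so 1 search covers both. Of 35114 RefSeq promoters of this length, 6.57% held at least 1 match and 0.402% held 2 or more. For CANNTG, the E-box letters, searched the same way on both strands for comparison, the count was 2 at the downstream EGFR start (1 of them overlapping TGAGTCA), 0 at the first EGFR start, 0 at MET, and 1 and 2 at the AXL starts, against 61.8% of all promoters with at least 1. The promoters of the first EGFR start and of MET were rich in G and C, at 73.6% and 68.4%, and the downstream EGFR start was poor, at 38.8%, against a median of 58% over all promoters. A match of letters is a description and not a binding site.

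Fra-1 peaks lay in all 3 windows and were closer together than in most of the genome. Over input the EGFR window held 10 Fra-1 peaks, the MET window 10 and the AXL window 8, or 4.35, 6.25 and 11.4 peaks per 100 kb. When chromosomes 1 to 22 and X were divided end to end into windows of the same length, 3.83% of the 230 kb windows held at least 10 Fra-1 peaks, 1.74% of the 160 kb windows held at least 10 and 0.6% of the 70 kb windows held at least 8. DDX5 peaks over input numbered 4 at EGFR, 2 at MET and 6 at AXL, counts reached by 5.73%, 10.9% and 0.591% of windows of those lengths. Per 100 kb these were 1.74, 1.25 and 8.57. In the AXL window, 2 of the 8 Fra-1 and 2 of the 6 DDX5 peaks lay in a second stretch. Whether that stretch belongs to AXL or to the next gene was not analysed. By these counts the AXL window had the densest listing of both antibodies over input among the 3 loci. Over IgG this order was not kept: Fra-1 peaks over IgG numbered 9 at EGFR, 6 at MET and 2 at AXL, reached by 1.14%, 2.4% and 9.24% of windows. These windows describe the lists and are no test, since the loci were not drawn at random. The windows were also not limited to mappable sequence or to genes. Of the 13174 windows of 230 kb, 5368 held 0 Fra-1 peaks over input.

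**Figure D1:**
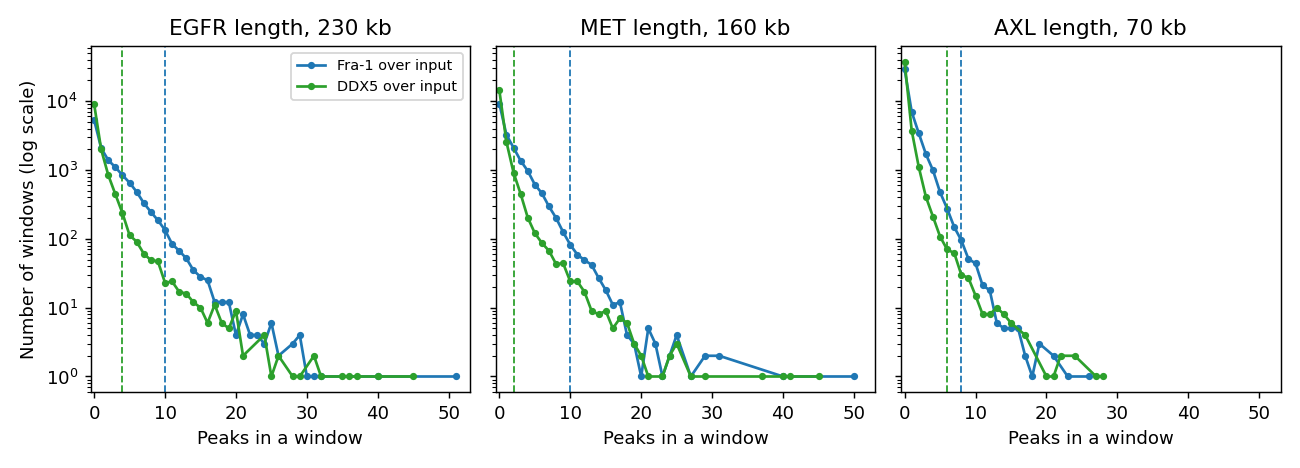
Number of windows of each locus's length, laid end to end over chromosomes 1 to 22 and X (vertical axis, log scale), by how many peaks a window held (horizontal axis), for the Fra-1 and DDX5 lists over input. Dashed lines mark the locus itself, at 10 and 4 peaks for EGFR, 10 and 2 for MET, and 8 and 6 for AXL.

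The folds of the Fra-1 peaks spanned most of their list, from above 0.932% to above 97.2% of it. Fold enrichment is the authors' ratio of the ChIP pileup (fragments at the summit) to the local control, each with 1 added. The 28 Fra-1 peaks over input ran from 2.44-fold to 23.5-fold with a median of 5.9, against 5.37 for the list, and 15 of 28 were above the list's median. At 8-fold or more there were 4 of 10 at EGFR, 5 of 10 at MET and 2 of 8 at AXL, together 39.3% (21.5% to 59.4%), against 29.5% of all Fra-1 peaks over input. By fold, 6 of the 28 were above 90% of the list. DDX5 enrichment was lower and narrower in range, from 3.42-fold to 6.45-fold, with a median of 4.02 against 4.16 for its list, and 0 of 12 reached 8-fold, which allows a share of up to 26.5%, against 2.28% of the list. The 2 highest DDX5 folds of the 12, both in the AXL window and 1 in each of its 2 stretches, were above 93.0% and 93.7% of the DDX5 list.

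**Figure D2:**
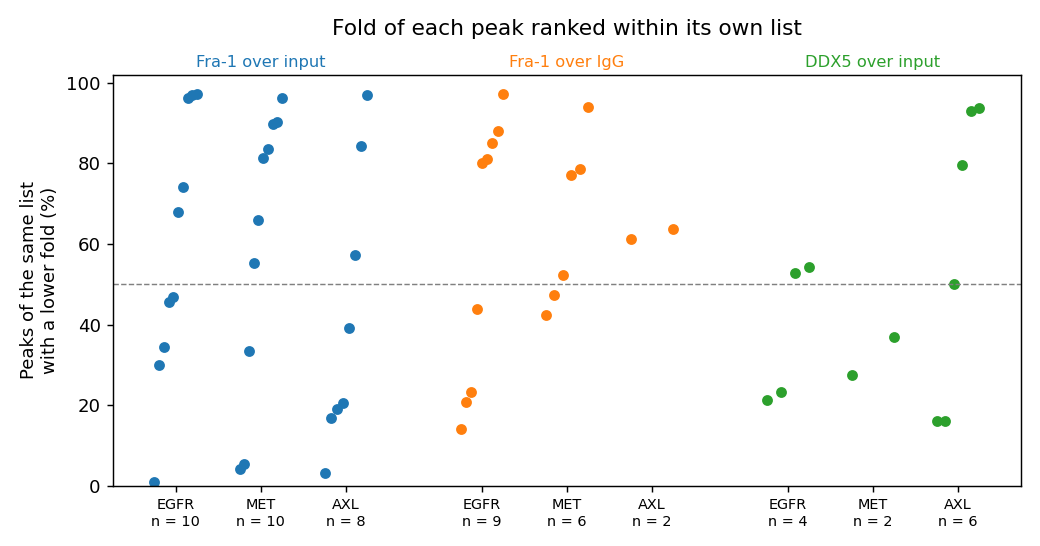
Share of the same list with a lower fold (vertical axis, percent) for each peak in the EGFR, MET and AXL windows, 1 point per peak, separately for DDX5 over input and for Fra-1 over either control. Fra-1 peaks over input run from near 0 to 97.2% at EGFR, and DDX5 peaks pass 90% in the AXL window only.

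At EGFR the Fra-1 peaks over input gathered in 3 groups and 1 single peak, and each group held 1 peak above 20-fold. Peaks at most 10 kb apart were counted as 1 group. In what follows a peak is named by the distance of its summit from the start of its window. The widest peak of the locus, at 130.7 kb (chr7:55200297-55201838, 1542 bp), had a Fra-1 pileup of 168 over an input level of 6.78, a fold of 21.7. It was wider than 99.7% of the list and ranked 526 of 30571 by −log10 q. The peak at 63.0 kb (chr7:55132713-55133839, 1127 bp) had a pileup of 136 over an input level of 4.84, a fold of 23.5. The peak at 184.1 kb (chr7:55253659-55254299) had a pileup of 96 over an input level of 3.18, a fold of 23.2. The other 7 peaks of the locus were all lower and had pileups of 17 to 50 and folds of 2.44 to 8.83. The first and the last Fra-1 peak of the locus were 131 kb apart from end to end, and the longest gap between 2 of them, 51.2 kb, lay between 55201838 and 55253032.

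Calling over IgG split the 2 wide EGFR peaks. Under the peak at 130.7 kb the list over IgG had 2 peaks, chr7:55200307-55201270 (pileup 149 over an IgG level of 7.0, 18.7-fold) and chr7:55201433-55201805 (99.0 over 8.0, 11.1-fold). Their summits were 0 bp and 927 bp from the summit called over input. The peak at 63.0 kb also held 2, chr7:55132764-55133192 (120 over 9.0, 12.1-fold) and chr7:55133264-55133684 (64.5 over 5.0, 10.9-fold), the second with its summit 498 bp away. The peak at 184.1 kb had 1, with 84.9 over 5.6, 13.0-fold. In the list over IgG the authors' Fra-1 pileups are multiples of 0.884, so they are lower than over input for the same fragments. This was taken as scaling to the depth of the IgG library. The other 4 EGFR peaks called again, at 61.5, 71.9, 127.5 and 183.2 kb, were at 4.24-fold to 6.31-fold over IgG. The 3 not called again, at 53.5, 108.7 and 126.9 kb, had folds of 4.48, 2.44 and 5.07 over input.

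DDX5 was listed at 4 EGFR positions, 2 of them overlapping the wide Fra-1 peaks. At 62.9 kb the DDX5 peak (chr7:55132802-55133070) had a pileup of 18 over an input level of 3.43, a fold of 4.29, and its summit lay 51 bp from the Fra-1 summit. At 131.7 kb the DDX5 peak (chr7:55201415-55201856) had a pileup of 18 over 4.29, a fold of 3.59. Its summit was 971 bp from that of the Fra-1 peak it overlapped, but 44 bp from the summit of the second Fra-1 peak that was called there over IgG. The third group, at 184.1 kb, had no DDX5 peak although its Fra-1 fold was as high as at 63.0 kb. The other DDX5 peaks lay far from Fra-1 peaks: the one at 16.8 kb (chr7:55086607-55087015) reached 3.55-fold with a pileup of 30, 22.6 kb from the nearest Fra-1 peak, and the one at 211.4 kb (chr7:55281305-55281810) reached 4.23-fold with a pileup of 15, 27.0 kb away. The input level at 16.8 kb was 7.72, higher than at 93.1% of the DDX5 list.

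**Figure D3:**
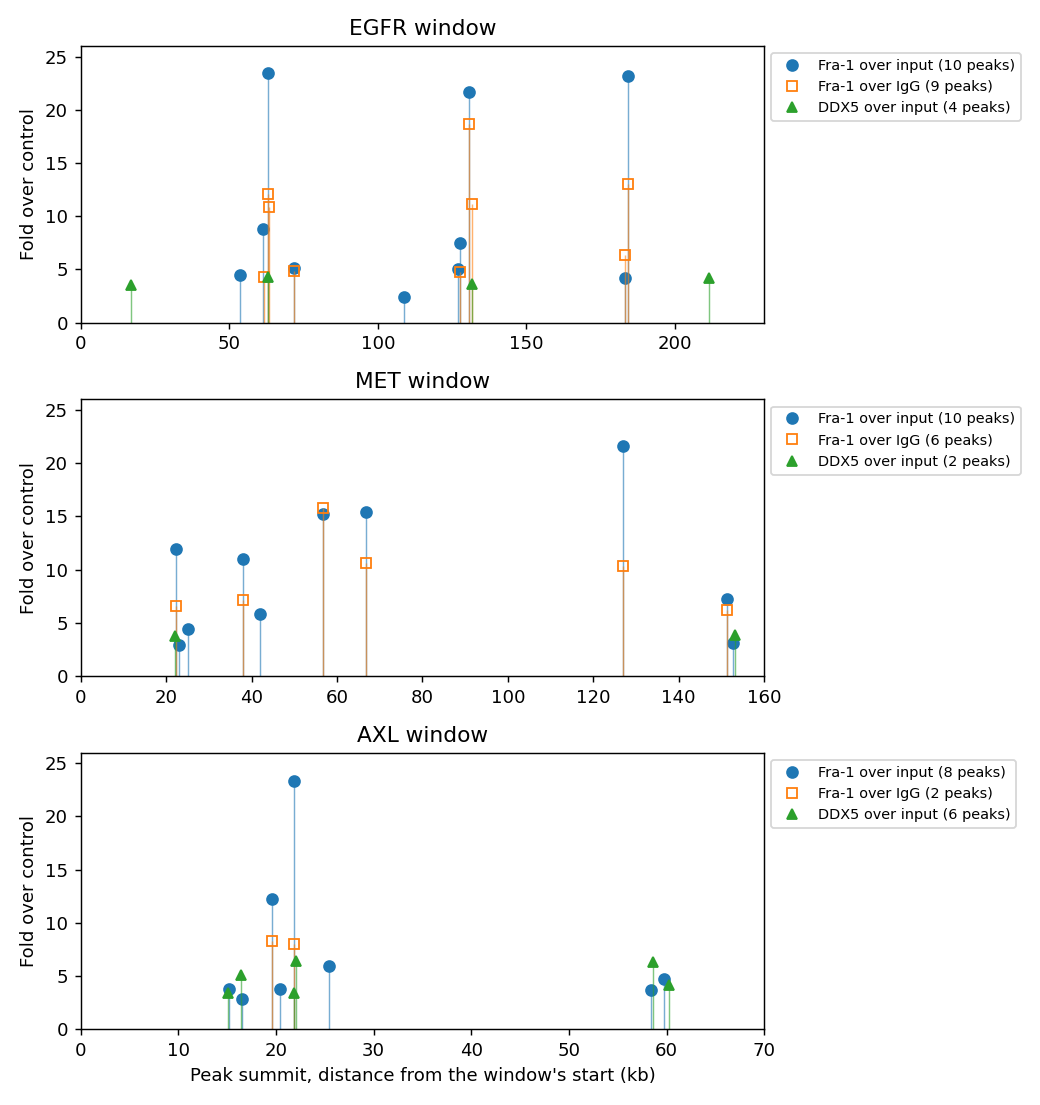
Fold over the control (vertical axis) of every peak in the EGFR, MET and AXL windows, by the distance of its summit from the window's start in kb. Filled circles are Fra-1 over input, open squares Fra-1 over IgG and triangles DDX5 over input; Fra-1 peaks near or above 20-fold stand at 3 EGFR positions, 1 MET position and 1 AXL position, and DDX5 peaks stay at or under 6.45-fold.

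The MET window had a similar number of Fra-1 peaks, spread over 131 kb in 5 groups, 1 of them a single peak. None was as wide as the EGFR peaks at 63.0 and 130.7 kb. The MET peaks were 248 to 497 bp wide, against 226 to 1542 bp at EGFR, and the widest was wider than 80.9% of the list. The peak at 126.9 kb (chr7:116416631-116417036) had a Fra-1 pileup of 104 over an input level of 3.87, a fold of 21.6, and over IgG 92.0 over 8.0, a fold of 10.3. It stood alone, with 59.5 kb to the preceding Fra-1 peak. The peak at 66.8 kb (chr7:116356682-116357178) had a pileup of 95 over 5.23, a fold of 15.4, and over IgG 84.0 over 7.0, a fold of 10.6. The peak at 56.8 kb (chr7:116346630-116346968) had a pileup of 88 over 4.84, a fold of 15.2, and 77.8 over 4.0, a fold of 15.8, over IgG. Among the MET peaks, the one at 126.9 kb was thus the highest over input and the one at 56.8 kb the highest over IgG. The peaks at 22.3 kb and 38.1 kb followed, with 11.9-fold and 11.0-fold over input and 6.59-fold and 7.09-fold over IgG.

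DDX5 was weakly listed at MET and at none of its 3 leading Fra-1 sites. The DDX5 peak at 22.2 kb (chr7:116311994-116312307) had a pileup of 15 over an input level of 3.31, a fold of 3.71, and overlapped the Fra-1 peak at 22.3 kb (chr7:116312168-116312511, pileup 57), with 181 bp between the summits. The second, at 153.1 kb (chr7:116442898-116443139), had a pileup of 15 over 3.12, a fold of 3.88. It ended the window's listing, 65 bp beyond a Fra-1 peak of 3.08-fold at 152.6 kb that was not called over IgG. Both DDX5 peaks were in the lower part of their list, above 27.4% and 36.9% of it by fold.

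At AXL 2 Fra-1 sites were above 8-fold over input and were called over IgG, and the other 6 were neither. The peak at 21.8 kb (chr19:41731421-41732479, 1059 bp) had a Fra-1 pileup of 135 over an input level of 4.84, a fold of 23.3. Over IgG the pileup was 119 over an IgG level of 14.0, a fold of 8.03. That IgG level was higher than at 95.7% of the Fra-1 list over IgG and the highest of the 17 member peaks, whose median was 6.8. The next AXL peak, at 19.6 kb (chr19:41729411-41729839), had a pileup of 61 over an input level of 4.07, a fold of 12.2, and over IgG 53.9 over 5.6, a fold of 8.32. Over IgG the 2 sites thus had folds closer to each other than over input, above 61.3% and 63.7% of that list. The other 6 Fra-1 peaks at AXL had folds of 2.85 to 5.99 over input, the highest at 25.4 kb (chr19:41735309-41735591, pileup 24), and none was called over IgG.

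DDX5 and Fra-1 peaks lay together in 2 stretches of the AXL window, 4 DDX5 and 6 Fra-1 peaks in the first and 2 and 2 in the second. The DDX5 peak with the highest fold of the 3 loci, at 22.1 kb (chr19:41731971-41732279), had a pileup of 32 over an input level of 4.12, a fold of 6.45. It shared the wide Fra-1 peak with a second DDX5 peak at 21.8 kb (chr19:41731588-41731834, pileup 20 over 5.15, 3.42-fold). The weaker of these was the one closer to the Fra-1 summit, at 23 bp against 337 bp. At 15.1 kb (chr19:41724982-41725201) the DDX5 pileup was 20, a fold of 3.42, beside a Fra-1 pileup of 25, a fold of 3.82. At 16.4 kb (chr19:41726299-41726523) the DDX5 pileup of 20, a fold of 5.14, was above the Fra-1 pileup of 14, a fold of 2.85.

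In the DDX5 list the second AXL stretch began 35.8 kb after the first had ended. RefSeq has HNRNPUL1, a gene for an RNA-binding nuclear protein, as the next protein-coding gene after AXL. Which of these genes the stretch belongs to was not analysed here. At 58.6 kb (chr19:41768079-41768746, 668 bp) the DDX5 pileup was 27 over an input level of 3.43, a fold of 6.32, and the overlapping Fra-1 peak had 3.67-fold with a pileup of 24. The last DDX5 peak, at 60.3 kb (chr19:41770234-41770433), reached 4.16-fold with a pileup of 21, and it ended the listing 412 bp beyond a Fra-1 peak of 4.72-fold. Neither Fra-1 peak of this stretch was called over IgG.

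**Figure D4:**
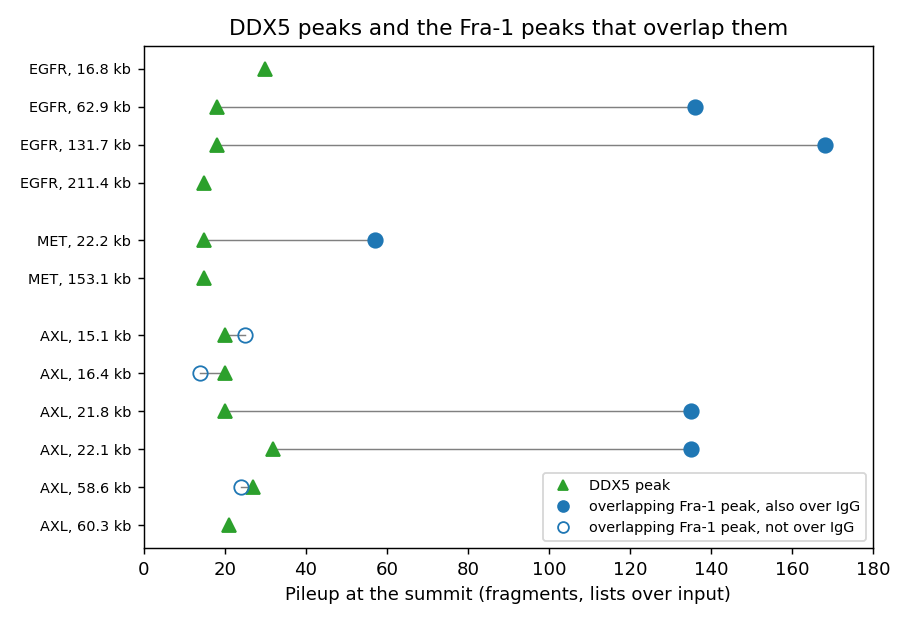
Pileup at the summit, in fragments (horizontal axis), of each of the 12 DDX5 peaks over input (triangles) and of the Fra-1 peak over input that overlaps it (circles, filled where Fra-1 was also called over IgG), with rows named by locus and distance from the window's start. The 5 filled circles lie at 57 to 168, the 3 open ones at 14 to 25, and the DDX5 peaks at 15 to 32.

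Counted over the 3 loci, the overlap of Fra-1 and DDX5 peaks over input had intervals that held the shares of the whole lists. Of the 12 DDX5 peaks over input, 8 overlapped a Fra-1 peak over input (66.7%, 34.9% to 90.1%), against 61.8% of all DDX5 peaks. Of the 28 Fra-1 peaks, 7 overlapped a DDX5 peak (25%, 10.7% to 44.9%), against 21.8%. With peak centres within 100 bp as the rule, these shares were 8.33% and 3.57%, against 36.3% and 12.9% of the whole lists. The centre is the midpoint of a peak, which in a wide peak can lie far from its summit. The DDX5 peaks at 62.9 kb (EGFR) and 21.8 kb (AXL), with summits 51 and 23 bp from the Fra-1 summit, did not meet this rule. With overlap of at least 1 bp, the Fra-1 peaks with a DDX5 peak were 2 of 10 at EGFR, 1 of 10 at MET and 4 of 8 at AXL, with intervals that overlap one another. At the 11 Fra-1 peaks of at least 8-fold the overlap was 4 (36.4%, 10.9% to 69.2%), against 15.3% of such peaks in the list. They include the EGFR peaks at 130.7 and 63.0 kb and the AXL peak at 21.8 kb. These are 1542, 1127 and 1059 bp wide, against a list median of 317 bp, and a wide peak meets the 1 bp rule more easily. Against Fra-1 peaks called over IgG, 5 of the 12 DDX5 peaks overlapped one (41.7%, 15.2% to 72.3%), against 13.2% of all DDX5 peaks, but 2 of these 5 share the same AXL peak. Of the 17 Fra-1 peaks over IgG, 4 overlapped a DDX5 peak (23.5%, 6.81% to 49.9%), against 8.68% of that list. Pileups of the antibodies come from libraries whose depth is not given and at summits that can differ, so they are given side by side and not as a ratio of binding.

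Each antibody depended differently on the control. Of the 28 Fra-1 peaks over input, 15 were called again over IgG (53.6%, 33.9% to 72.5%), against 50.5% of the list: 7 of 10 at EGFR, 6 of 10 at MET and 2 of 8 at AXL. All 11 peaks of at least 8-fold were among them, against 97.6% in the list. The 15 had a median fold of 12.2 over input (4.23 to 23.5), and the 13 not called again had 3.82 (2.44 to 5.99). All 17 peaks of the Fra-1 list over IgG in these windows overlapped a Fra-1 peak over input, against 97.7% of that list. Summits were within 10 bp in 15 of 17 pairs, and the median summit distance over all 15780 overlapping pairs was 0 bp. Both lists use the same Fra-1 library, so close summits are not independent evidence of binding. None of the 12 DDX5 peaks was called over IgG, which allows a share of up to 26.5%, against 0.508% of the DDX5 list. The DDX5 sites described above therefore rest on the comparison with input DNA, and the level of IgG at most of them is not known from these lists. Where a Fra-1 peak over IgG overlapped the DDX5 peak, the local IgG level computed from that Fra-1 peak's pileup and fold was 6.8 to 14.0. This level need not equal the count of IgG fragments at the summit.

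**Figure D5:**
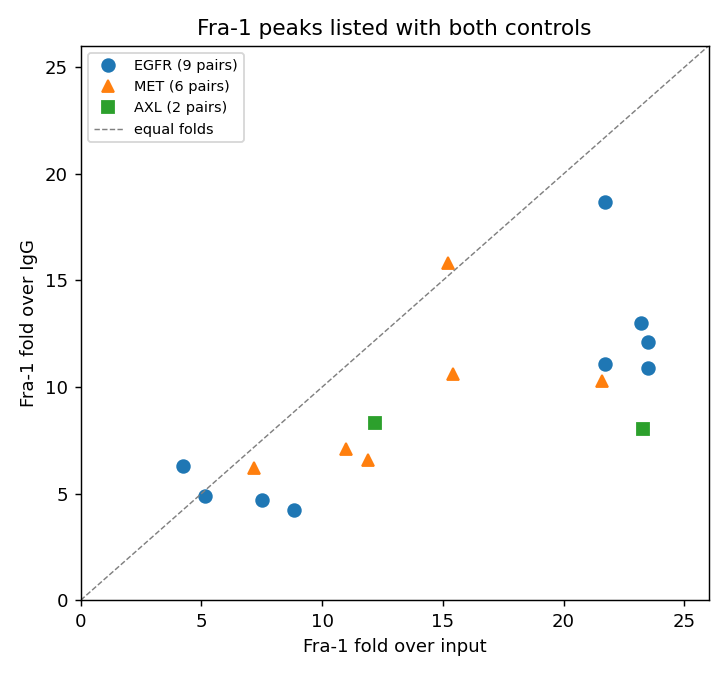
Fra-1 fold over IgG (vertical axis) against Fra-1 fold over input (horizontal axis) for the 17 peaks called over IgG in the EGFR, MET and AXL windows, each paired with the input-called peak it overlaps. The dashed line marks equal folds; 15 of 17 points lie under it, and the AXL point at 23.3 over input and 8.03 over IgG lies furthest below in ratio.

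The fold over input was higher than the fold over IgG in 15 of the 17 pairs, with a median ratio of 1.59 (0.67 to 2.9), against a median of 1.27 over all 15780 such pairs, of which 74.2% were above 1. The 2 exceptions were the EGFR peak at 183.2 kb (4.23-fold over input, 6.31-fold over IgG) and the MET peak at 56.8 kb. The highest ratio, 2.9, was at the AXL peak at 21.8 kb. The 17 pairs came from 15 peaks over input, since the EGFR peaks at 63.0 and 130.7 kb each held 2 peaks over IgG. In the second pair of each, the summits were 498 and 927 bp apart, with ratios of 2.15 and 1.96. These 2 ratios do not compare the controls at 1 summit. The input level at Fra-1 peaks had a median of 5.23 at EGFR, 4.47 at MET and 4.16 at AXL, against 4.45 for the list (interquartile range 3.48 to 5.81). At EGFR it ranged over single peaks from 3.02 to 7.74. The value of 3.02 is the lowest in the list, and the level cannot fall below the caller's genome-wide background. Copy number of the loci was not tested.

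The windows cut through no peak. The nearest Fra-1 peaks over input outside were 6.01 kb before the EGFR window (4.48-fold) and 27.9 kb after it (3.49-fold), 16.0 kb before the MET window (4.46-fold) and 52.4 kb after it (5.54-fold), and 372 kb before the AXL window (6.57-fold) and 22.4 kb after it (5.27-fold). Just inside, the first and last Fra-1 peaks over input had folds of 4.48 and 23.2 at EGFR, 11.9 and 3.08 at MET, and 3.82 and 4.72 at AXL. RefSeq places SEC61G before and LANCL2 after EGFR, CAV1 before and CAPZA2 after MET, and CYP2S1 before AXL as the neighbouring protein-coding genes.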

How the data were processed

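Peaks of 1 Fra-1 and 1 DDX5 ChIP library, each against 1 IgG and 1 input library, were taken from the 4 deposited lists. The submitters' processing notes name CASAVA 1.8, Bowtie 0.12.9, HOMER and hg19 without their roles; the peak caller is not given in the sources used here. Per the file headers, the deposited signal is a pileup and the deposited fold a ratio. The −log10 columns in the authors' lists have damaged headers: the first matches a Poisson −log10 p-value (median difference 6.22e-06, Fra-1 over input) and the second, which is lower, was taken as −log10 q. Over IgG the pileups are multiples of 0.884 (Fra-1) and 0.998 (DDX5). The control level was computed as (pileup + 1)/fold − 1, and cannot fall below the caller's genome-wide background.

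Lists were compared by overlap of at least 1 bp, with code tested on simulated data, in Python 3.11.15, pandas 2.3.3, numpy 2.4.6, scipy 1.17.1 and matplotlib 3.10.9. The loci and lists were chosen with earlier results of these data known. Values are given for the 3 Fra-1 and 3 DDX5 peaks over input with the highest −log10 q per window and for every common site; in practice all DDX5 peaks are given. Alternatives were stricter thresholds, other overlap rules, wider windows and the other control. Planned positions within genes, motifs in peaks and counts at other receptor and ligand genes need hg19 annotation and were not run.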

Additional observations from a re-analysis of the deposited data

How the results depend on the processing

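Of 52 alternatives, 35 gave a share inside the reported interval or a count within 1.5 times of the reported one, all those with wider windows or whole peaks included. A further 12, added after the data were seen, were for the DDX5 counts of 0 over IgG and are left out of this tally; with windows widened by 50 kb those counts were still 0. With peaks of at least 8-fold, Fra-1 over input fell to 4 (EGFR), 5 (MET) and 2 (AXL), Fra-1 over IgG to 5 (EGFR) and 3 (MET), and DDX5 over input to 0 (EGFR), 0 (MET) and 0 (AXL). With peaks below their list's median −log10 q left out, Fra-1 over input fell to 6 (EGFR) and 2 (AXL), Fra-1 over IgG to 5 (EGFR), and DDX5 over input to 1 (EGFR) and 0 (MET). Thresholds lower counts by construction. Counts of whole peaks could not differ from the reported ones, since the windows cut through no peak. Wider windows were judged by raw count and not by peaks per 100 kb. At AXL the Fra-1 count over input was 12 in the wider window, against 8. Of the Fra-1 peaks over input, 53.6% were called again over IgG, which rose to 100% at 8-fold and 93.3% above the median. In the whole list the share at 8-fold was 97.6%. Both calls use the same Fra-1 library, and the cause of the rise was not tested. With peak centres within 100 bp, a stricter rule, DDX5 overlap of Fra-1 peaks, 25%, became 3.57%, and Fra-1 overlap of DDX5 peaks, 66.7%, became 8.33%. That last share could not be computed at 8-fold, since no DDX5 peak is left. No paired analysis was possible because each antibody has 1 library. The shares rest on 28 and 12 peaks, so their intervals are wide.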

Other observations

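In the whole Fra-1 list over input, DDX5 overlap was less frequent among peaks called again over IgG (9.38%) than among those not called again (34.4%). In the EGFR, MET and AXL windows the shares were 4 of 15 (26.7%) and 3 of 13 (23.1%). The 4 were the EGFR peaks at 63.0 and 130.7 kb, the MET peak at 22.3 kb and the AXL peak at 21.8 kb, and the 3 were all at AXL, at 15.2, 16.5 and 58.4 kb. These shares rest on 15 and 13 peaks and have no intervals. A difference between these windows and the list was neither tested nor shown.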
